A study of Mus musculus with 5 samples.

Results

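The genes described here are 40 cell cycle genes, chosen by symbol, and all 40 were found among the 27998 genes of the deposited tables. They were followed in CD45+ cells (cells carrying the leukocyte surface protein CD45) sorted live from the dermis of C57BL/6 mice. Droplet single-cell RNA sequencing with 3′ chemistry gave 5 libraries, 1 per condition. The libraries labelled P45, P50, P63 and P80 are 4 time points in telogen, when hair follicles rest, and are read as postnatal days 45, 50, 63 and 80. The library labelled P50_Depil5D is called the depilated library; its label names day 50 and 5 days after depilation, and does not say whether depilation or collection fell on day 50. Depilation, the pulling out of hair shafts, starts a new growth phase of the follicle. The labels name no transgene or drug, and do not give the number, sex or pooling of the animals. With 1 library per condition no difference between conditions can be tested, and every interval below is an exact 95% interval for counting error only, not for differences between animals. Intervals of levels and their ratios count each UMI as independent. They leave out the spread between cells, which matters where few cells hold many of the UMIs.

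A dividing cell copies its DNA in S phase and separates the copies in mitosis. Licensing of replication origins by the Mcm helicase, supply of nucleotides and the sliding clamp serve the first step. Cyclins, the kinase Cdk1, the chromosome passenger complex, the spindle and ubiquitin-dependent destruction of cyclins serve the second, and most genes of each step are switched on together in cells that cycle. In mouse skin, resident T cells of the epidermis and dermis, Langerhans cells and keratinocytes are known to renew by local division.

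The 40 genes were split by role. The broad members are 5 genes also present in many non-dividing cells: Stmn1, a microtubule destabiliser; H2afz, a histone variant; Tuba1b and Tubb5, tubulins; and Hmgb2, a chromatin protein. The other 35 are called narrow members. Of these, 13 are replication members, made up of 6 Mcm genes and 7 genes of S phase supply, and 22 are mitosis members. Tubulin, histone and Hmgb genes have close copies in the mouse genome, and how reads shared between copies were counted is not given in the sources used here, so the levels of the broad members are uncertain. In the GENCODE vM21 annotation 19 of the 40 genes overlap another gene, 9 of them on the same strand.

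The promoters of 4 members are shown because mitosis and replication members differed in 2 of 3 motifs searched, the CHR and the E2F site, and these members recur below. The windows come from RefSeq on build GRCm38.p6 and run 5′ to 3′ from 250 bases before the transcription start to 30 bases after it. Capitals mark 3 motifs read on both strands. These are the CHR (TTTGAA), the CCAAT box (CCAAT) and an E2F site (TTTCCCGC, TTTCGCGC, TTTGCCGC or TTTGGCGC), and matches may overlap. Ube2c and Ccnb2 are mitosis members, Cdk1 is the mitotic kinase, and Mcm6 is a helicase subunit. Their positions are chr2:164769679-164769958 (+), chr9:70421525-70421804 (-), chr10:69352883-69353162 (-) and chr1:128359676-128359955 (-).
Ube2c: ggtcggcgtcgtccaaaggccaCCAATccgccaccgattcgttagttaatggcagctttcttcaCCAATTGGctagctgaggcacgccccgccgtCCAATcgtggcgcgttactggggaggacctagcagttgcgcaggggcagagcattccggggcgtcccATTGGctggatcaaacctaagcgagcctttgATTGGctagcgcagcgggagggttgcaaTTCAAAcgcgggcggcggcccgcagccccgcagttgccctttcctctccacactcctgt
Ccnb2: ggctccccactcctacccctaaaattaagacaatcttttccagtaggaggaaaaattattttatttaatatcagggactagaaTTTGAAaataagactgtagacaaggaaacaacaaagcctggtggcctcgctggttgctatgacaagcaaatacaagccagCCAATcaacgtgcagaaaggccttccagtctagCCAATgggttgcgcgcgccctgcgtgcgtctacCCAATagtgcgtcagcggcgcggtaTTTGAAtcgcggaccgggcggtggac
Cdk1: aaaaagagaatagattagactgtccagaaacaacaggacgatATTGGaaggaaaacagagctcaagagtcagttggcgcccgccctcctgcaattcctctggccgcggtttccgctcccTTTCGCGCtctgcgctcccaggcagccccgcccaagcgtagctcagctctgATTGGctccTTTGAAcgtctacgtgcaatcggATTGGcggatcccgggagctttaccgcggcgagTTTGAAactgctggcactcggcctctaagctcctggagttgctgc
Mcm6: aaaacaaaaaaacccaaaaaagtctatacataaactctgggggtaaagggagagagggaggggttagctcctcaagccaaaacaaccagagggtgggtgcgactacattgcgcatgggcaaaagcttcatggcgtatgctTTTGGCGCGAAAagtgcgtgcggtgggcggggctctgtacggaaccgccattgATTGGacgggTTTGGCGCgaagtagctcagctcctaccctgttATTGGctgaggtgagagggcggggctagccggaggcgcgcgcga

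The Ccnb2 window held 3 CCAAT boxes whose starts lay 33 bases apart, with a CHR 5 bases after the start site. In Ube2c the last 2 of 6 CCAAT matches lay 31 bases apart, followed by a CHR, and in Cdk1 the last 2 of 3 lay 32 bases apart with a CHR after them. Mcm6 had no CHR and held 3 E2F matches, 2 of them overlapping. A window of 300 bases, from 250 before to 50 after the start, was found by symbol for 34 of the 40 members, and for the other 6 (Ccna2, Stmn1, H2afz, Tpx2, Mcm4 and Smc4) none was matched. A CHR occurred in 15 of 19 mitosis members, 2 of 12 replication members and 20.2% of all 27025 genes with a window. All 15 of those mitosis members also held a CCAAT box, a pair present in 7.97% of all genes. An E2F site occurred in 4 of 5 Mcm genes, 5 of 12 replication members, 1 of 19 mitosis members and 2.61% of all genes. A CCAAT box alone was common to both roles, in 17 of 19 mitosis members, 10 of 12 replication members, 5 of 5 Mcm genes among them, and 41.1% of all genes. These matches describe letters in a window and show no binding.

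Of 6223 barcodes, 6162 were kept after filters on genes and mitochondrial UMIs (unique molecular identifiers, which count captured RNA molecules), from 488 to 2142 per library with medians of 1236 to 2550 UMIs. Cells were placed in a class by how many of 8 markers of that class had a UMI. There were 1435 T cell-like, 2816 phagocyte-like (by Cd74, H2-Aa, Lyz2 and Csf1r among others) and 911 keratinocyte-like cells, and 769 cells with markers of more than 1 class were left out as mixed. Raised at least 2-fold over the remaining cells were 7 of 8 T cell markers and all 8 of the phagocyte and keratinocyte lists. This describes the gates and gives them no support, since the same markers made them. Of the phagocyte-like cells 144 fell in a gate led by Ngp and S100a9, genes of neutrophils. Keratinocytes are not expected in a CD45+ sort, and their class led with Lgals7, Ccl27b and Krt10. By library P45, P50, P63, P80 and depilated, the T cell-like class held 132, 550, 102, 36 and 615 cells.

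Libraries shared cell barcodes, and this bears on all values from P63 and P80. P45 shared at most 7 barcodes with any other library, while the other 4 shared 134 to 193 with each other. Of 865 pairs of cells that carried 1 barcode in 2 libraries and had a class in both, 859 (99.3%) had the same class in both. Among keratinocyte-like cells 76.8%, 68.2%, 77.0% and 69.8% had a shared barcode in P50, P63, P80 and the depilated library, against 0.658% in P45. Among T cell-like cells the share was 1.27% in P50, 0.976% in the depilated library, 3.92% in P63 and 11.1% in P80. Whether a cell belongs to 1 library or to the other cannot be told apart, so the summed levels, the main shares and ratios and the members' counts at P63 and P80 are also given without these cells. The concentration of members in a few cells, pairs of genes in a cell and counts over gene lists are given from all cells kept. The libraries also differed in the percent of UMIs that fell to ribosomal protein pseudogenes rather than to their parent genes, with medians of 7.07%, 3.70%, 18.5%, 25.0% and 3.51%. The 1078 cells below 0.5 times the median of their library are called low-share cells. What separates the libraries in this measure was not tested.

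In T cell-like cells the narrow members were lowest at P45 and highest at P50 among the 3 libraries with few shared T cell-like barcodes. Their summed level was 873 UMIs per 1000000 UMIs of the class (CPM) at P45 (interval 771 to 984), 2221 at P50 (2118 to 2328) and 1807 in the depilated library (1721 to 1896). It was 1579 at P63 and 2219 at P80, and 902 and 538 without shared barcodes, when P63 kept 133 of 261 narrow UMIs and P80 17 of 92. At P80 all 3 T cell-like cells with 8 or more narrow members had a shared barcode. P50 and the depilated library moved little without these cells, to 2204 and 1784 CPM. P50 over P45 was 2.55-fold (2.24 to 2.91), and the depilated library over P50 was 0.813-fold (0.760 to 0.871).

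**Figure D1:**
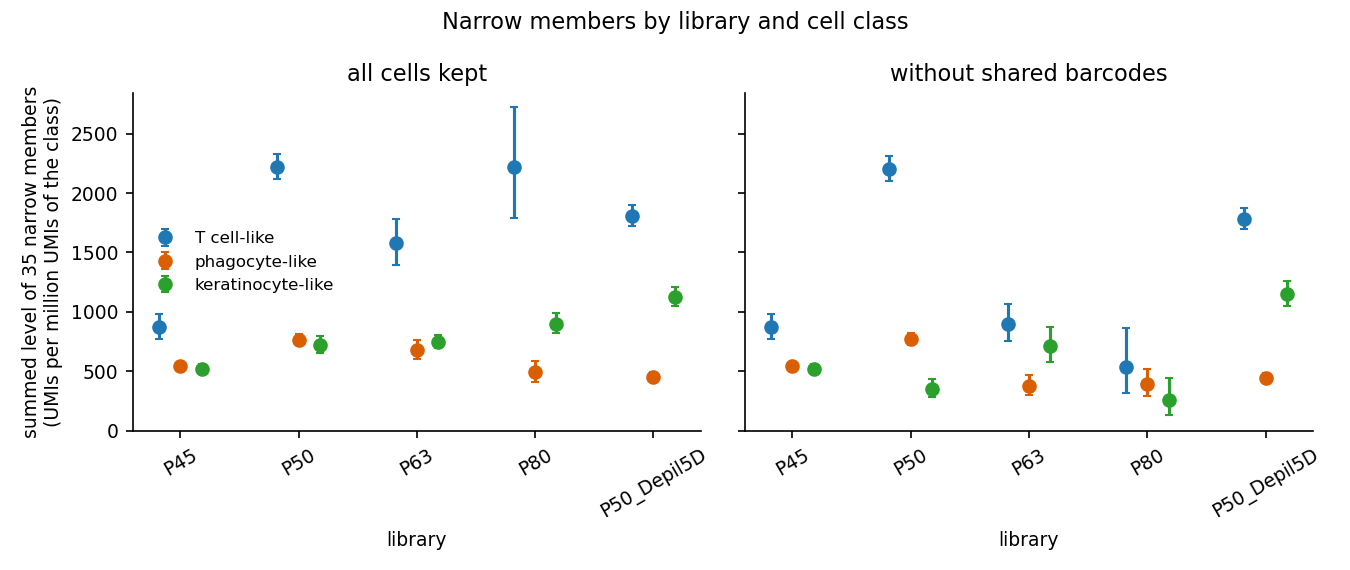
Summed level of the 35 narrow members (CPM of the class, y axis) in each library (x axis) for 3 cell classes, from all cells kept (left) and without cells whose barcode is in another library (right). Points are single libraries and bars exact 95% Poisson intervals; the T cell-like value at P80 was 2219 in the left panel and 538 in the right, while that at P50 was 2221 and 2204.

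Most narrow UMIs lay in few cells. Of the T cell-like cells 51.1% had no narrow member, 35.7% had 1 to 2, 1.95% had 8 to 11 and 5.02% had 12 or more. The cells with 8 or more, a bound chosen after seeing this distribution, numbered 4 of 132 at P45 (3.03%), 47 of 550 at P50 (8.55%) and 43 of 615 in the depilated library (6.99%). They made up 100 of 1435 cells over all libraries and held 68.2% of narrow UMIs, a description, since these UMIs chose the cells. Their median of 2794 UMIs stood above the 1290 of the whole class. P50 over P45 was 2.82-fold for this share (1.03 to 10.8), and the depilated library over P50 was 0.818-fold (0.528 to 1.26), an interval that holds 1. The first of these was 1.61-fold (0.541 to 6.49) thinned to 1000 UMIs per cell, which also left out cells under 1000 UMIs (141 of 550 at P50 and 0 of 132 at P45), and 0.720-fold (0.0578 to 37.8) thinned to 500. The median T cell-like cell had 2136 UMIs at P45, 1173 at P50 and 1292 in the depilated library.

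**Figure D2:**
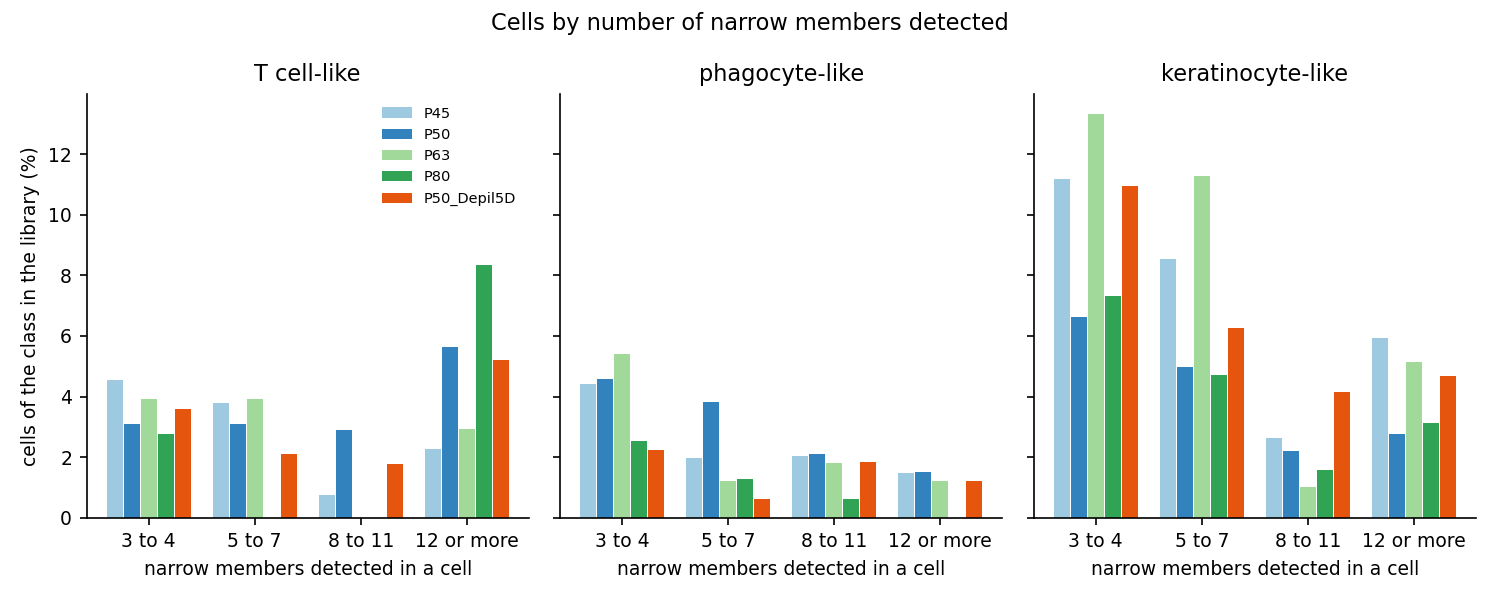
Percent of cells of a class in a library (y axis) by the number of the 35 narrow members detected in the cell (x axis), from 3 upward; bars are single libraries. In T cell-like cells at P50 and in the depilated library, 5.64% and 5.20% of cells held 12 or more, a bin with no upper bound, and 2.91% and 1.79% held 8 to 11, while in the phagocyte-like class no library exceeded 1.52% at 12 or more.

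Most of these cells carried both programs. Of the 100 T cell-like cells, 73 had at least 3 replication and 3 mitosis members, 26 had at least 3 mitosis members only and 1 at least 3 replication members only. The median cell held 4 replication and 10 mitosis members. Of 64 T cell-like cells with Mki67, the proliferation antigen Ki-67, 65.6% had Top2a, the topoisomerase that untangles chromosomes, against 5.76% of the 1371 cells without Mki67. Cells with Mki67 were deeper, with a median of 2761 against 1263 UMIs, and the part of depth in this difference was not tested. Stmn1 went with these cells more than the other broad members: 46.3% of cells with Stmn1 had Top2a, against 15.2% of cells with H2afz.

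Members differed in how far they were held to this group. For each gene the percent of its T cell-like UMIs in cells with 8 or more other narrow members was taken, where such cells held about 13% of all UMIs. It was highest for Tpx2 (97.3%), a spindle assembly factor, Ccnb1 (92.3%) and Ccna2 (91.4%), the mitotic and S phase cyclins, and Cdc20 (89.3%), which directs the destruction of cyclins. It was lowest for Pcna (30.8%), the sliding clamp, Cenpa (32.5%), the centromeric histone, and Rrm1 (35.8%), the large subunit of ribonucleotide reductase. The 6 Mcm genes lay between 37.7% and 53.6%, and the small reductase subunit Rrm2 reached 84.6%. Among broad members Stmn1 stood at 78.6% and H2afz at 51.1%.

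**Figure D3:**
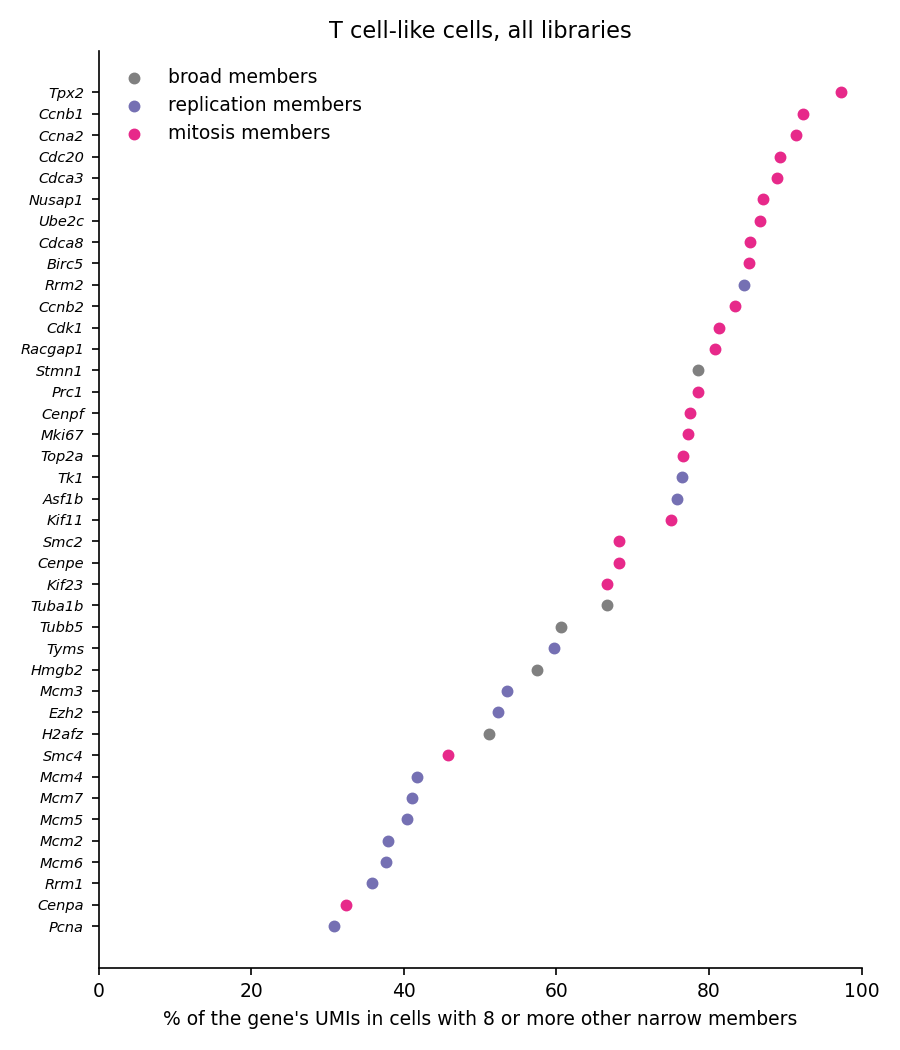
Percent of each member's UMIs over all T cell-like cells that lay in cells with 8 or more other narrow members (x axis), for 40 genes (y axis), coloured by broad, replication and mitosis members. Cyclin genes and Cdc20 stand toward the right, spindle genes spread from Tpx2 at 97.3% down to Kif23 at 66.7%, and Pcna at 30.8% stands lowest.

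Licensing genes were among the lowest members. Mcm7, a helicase subunit, stood at 32.7, 41.9, 30.2, 72.4 and 29.6 CPM in P45, P50, P63, P80 and the depilated library, from 10, 33, 5, 3 and 27 UMIs. Mcm6 stood at 19.6, 53.3, 30.2, 48.2 and 24.1 CPM (6, 42, 5, 2 and 22 UMIs), and Mcm2 at 22.9, 29.2, 48.4, 48.2 and 19.7 CPM (7, 23, 8, 2 and 18 UMIs). P50 stood above P45 and the depilated library for each of these genes, while P63 and P80 rested on 8 UMIs or fewer. Without shared barcodes P80 kept 1, 0 and 1 UMIs of Mcm7, Mcm6 and Mcm2. As a group the Mcm genes were 0.589-fold in the depilated library over P50 (0.460 to 0.752) and 1.91-fold at P50 over P45 (1.31 to 2.85).

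Among S phase genes Pcna changed least between the larger libraries, at 88.3, 92.7, 127, 145 and 106 CPM (27, 73, 21, 6 and 97 UMIs) in the same order. Rrm2 stood at 29.4, 131, 90.7, 217 and 57.0 CPM (9, 103, 15, 9 and 52 UMIs), highest at P50 among the 3 libraries with few shared cells. Rrm1 and Tyms, the thymidylate synthase, had the same pooled level, 49.3 CPM, and Rrm1 was at 13.1, 47.0, 24.2, 72.4 and 66.8 CPM (4, 37, 4, 3 and 61 UMIs). In the depilated library over P50 Rrm2 was 0.436-fold (0.306 to 0.614) and Rrm1 1.42-fold (0.930 to 2.20). The 2 intervals do not overlap, but they leave out the spread between cells. Tyms stood at 22.9, 58.4, 42.3, 121 and 48.2 CPM (7, 46, 7, 5 and 44 UMIs). P80 kept 3 UMIs of Pcna and 0 of Rrm2, Rrm1 and Tyms without shared barcodes.

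Of the mitotic entry and exit genes Ube2c, the ubiquitin-conjugating enzyme of the anaphase-promoting complex, stood at 45.8, 182, 48.4, 72.4 and 153 CPM (14, 143, 8, 3 and 140 UMIs). Ccnb2, cyclin B2, stood at 26.2, 90.2, 54.4, 72.4 and 72.3 CPM (8, 71, 9, 3 and 66 UMIs). Cdc20 stood at 13.1, 59.7, 54.4, 48.2 and 44.9 CPM (4, 47, 9, 2 and 41 UMIs). Among P45, P50 and the depilated library all 3 were lowest at P45 and highest at P50. In P63 and P80 without shared barcodes Ube2c kept 2 and 0 UMIs, Ccnb2 4 and 1, and Cdc20 0 in each, for which 3 UMIs is taken as the limit of detection. The 7 genes of this role together were 4.15-fold higher at P50 than at P45 (2.96 to 5.98) and 0.817-fold in the depilated library over P50 (0.707 to 0.943).

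Chromosome structure genes were 1.5-fold at P50 over P45 as a group (1.15 to 1.96), the smallest ratio of the 6 narrow roles. Top2a stood at 81.7, 126, 127, 169 and 105 CPM (25, 99, 21, 7 and 96 UMIs) and Smc4, a condensin subunit, at 98.1, 109, 139, 24.1 and 105 CPM (30, 86, 23, 1 and 96 UMIs). Smc2, its partner, stood at 42.5, 62.2, 66.5, 145 and 51.5 CPM (13, 49, 11, 6 and 47 UMIs). For Top2a, Smc4 and Smc2 the interval of the depilated library over P50 holds 1. Mki67, the other gene of this role, stood at 64.8 CPM at P50 and 35.1 in the depilated library, a ratio of 0.541 (0.337 to 0.859). Without shared barcodes P63 and P80 kept 7 and 0 UMIs of Top2a, 20 and 0 of Smc4 and 6 and 2 of Smc2.

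Cenpa, the centromeric histone, stood at 55.6, 193, 90.7, 96.5 and 250 CPM (17, 152, 15, 4 and 228 UMIs), highest in the depilated library, where it was 1.29-fold over P50 (1.05 to 1.60). Of the 40 members 7 stood above 1-fold in that comparison (Cenpa, Cdk1, Cenpe, Cenpf, Tpx2, Pcna and Rrm1), against 3850 of 8186 genes. Cenpa was the 1 member whose interval lay above 1. Birc5, survivin of the passenger complex, stood at 62.1, 99.1, 30.2, 145 and 82.2 CPM (19, 78, 5, 6 and 75 UMIs), and Cdca8, borealin of the same complex, at 6.54, 54.6, 42.3, 72.4 and 44.9 CPM (2, 43, 7, 3 and 41 UMIs). Without shared barcodes P63 and P80 kept 9 and 3 UMIs of Cenpa, 0 of Birc5 in both, and 2 and 0 of Cdca8.

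Spindle genes had the largest ratio of P50 over P45, 6.25-fold as a group (3.50 to 12.3), with 12 and 193 UMIs. Nusap1, a spindle-associated protein, had 0 UMIs at P45, where 3 UMIs would be 9.81 CPM, and stood at 81.3, 18.1, 48.2 and 51.5 CPM in P50, P63, P80 and the depilated library (64, 3, 2 and 47 UMIs). Racgap1, a regulator of cytokinesis, stood at 16.3, 57.2, 36.3, 48.2 and 44.9 CPM (5, 45, 6, 2 and 41 UMIs). Prc1, which bundles the midzone of the spindle, stood at 9.81, 41.9, 18.1, 0 and 34.0 CPM (3, 33, 3, 0 and 31 UMIs). Each was lowest at P45 among the 3 libraries with few shared cells. In P63 and P80 without shared barcodes these 3 genes kept at most 4 UMIs.

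The broad members stood at higher levels and were also lowest at P45 among P45, P50 and the depilated library. H2afz stood at 628, 1303, 895, 1254 and 979 CPM, Tubb5 at 494, 1099, 913, 748 and 858 CPM, and Hmgb2 at 533, 997, 714, 820 and 853 CPM. Stmn1 varied more, at 203, 949, 351, 651 and 499 CPM (62, 747, 58, 27 and 455 UMIs), and was 0.526-fold in the depilated library over P50 (0.467 to 0.591). Without shared barcodes P63 and P80 stood at 563 and 633 CPM for H2afz, 671 and 380 for Tubb5 and 508 and 158 for Hmgb2. For Stmn1 they then stood at 149 and 0 CPM, so of these 4 genes Tubb5, Hmgb2 and Stmn1 at P80 and H2afz, Hmgb2 and Stmn1 at P63 lay below P45. H2afz was also high in phagocyte-like cells, from 1536 to 2382 CPM, where Stmn1 lay between 73.6 and 120 CPM.

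Counted over genes, P50 stood above P45 for most members in T cell-like cells. On log2(CPM + 10), which understates ratios of low genes, 26 of 40 were at least 2-fold higher, against 6.48% of 7256 genes tested (those with 10 or more UMIs over both libraries), and 0 were 2-fold lower, against 4.3%. The interval lay above 1 for 25 members, against 10.4% of genes, and below 1 for 0, against 8.24%. The median member was higher by 1.21 on the log2 scale and the median gene by 0.03. On this scale Stmn1 (2.17), Cdca8 (1.97) and Cdca3 (1.96) were among the highest, and Nusap1 had 0 UMIs at P45.

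After depilation T cell-like cells leaned lower. Compared with P50, 2 of 40 members were 2-fold lower, Asf1b (-1.23), a histone chaperone, and Rrm2 (-1.07), against 0.428% of 8186 genes, and 0 were 2-fold higher, against 0.391%. With 1 CPM added in place of 10, 5 members were 2-fold lower. The interval lay below 1 for 14 members, against 5.8% of genes, and above 1 for Cenpa alone, against 4.7%. All 5 broad members were among the 14. The median was -0.53 for 13 replication members, -0.24 for 22 mitosis members and -0.02 for all genes. Replication members were 0.666-fold in sum (0.587 to 0.755) and mitosis members 0.886-fold (0.817 to 0.960). These intervals do not overlap, but they leave out the spread between cells, so a difference between the roles is not shown. By cells, the share with 8 or more narrow members was 0.818-fold (0.528 to 1.26).

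**Figure D4:**
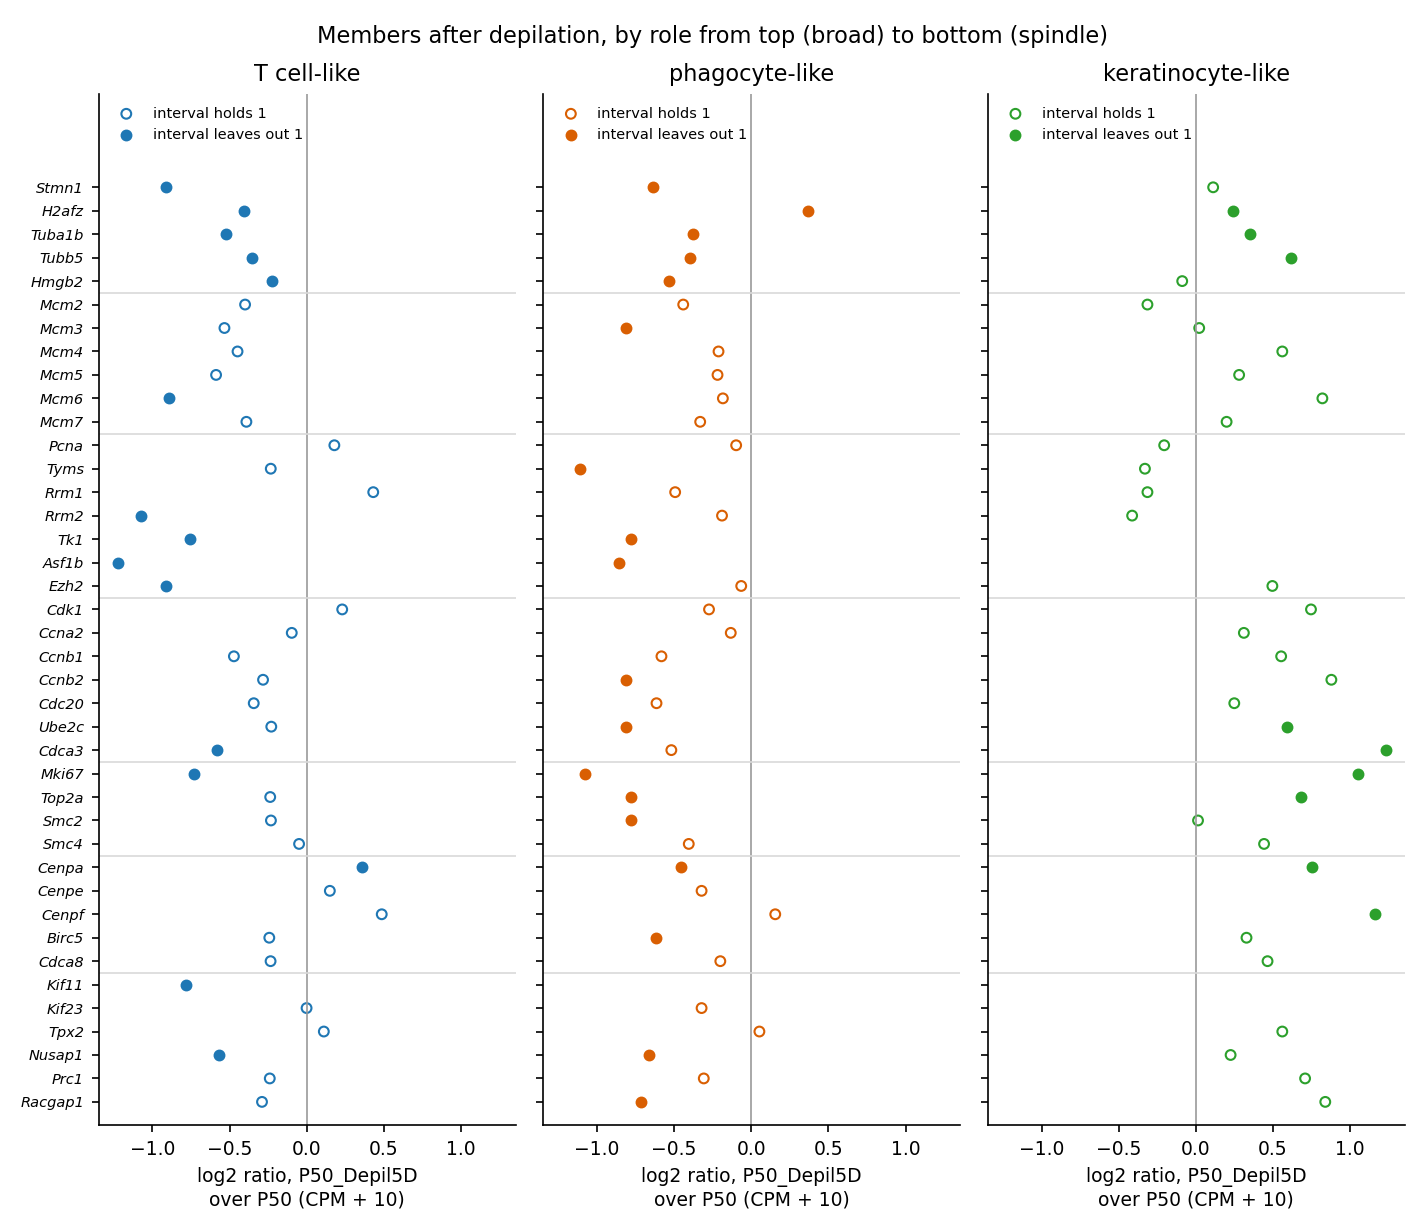
Log2 ratio of the depilated library over P50 on CPM + 10 (x axis) for each member (y axis), by role from broad members at the top to spindle members at the bottom, in 3 cell classes; members with under 10 UMIs over both libraries are left out. Filled points have an exact 95% interval of the ratio that leaves out 1: 15 in T cell-like, 18 in phagocyte-like and 9 in keratinocyte-like cells, the last all to the right of 0.

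Other cell cycle genes, from lists that hold no member, were compared in the same way. In the depilated library over P50, the interval lay below 1 for 7 of 23 tested genes of a replication list, against 5.8% of all genes, and above 1 for 0, against 4.7%. Dut, the dUTPase, was 0.582-fold (0.456 to 0.741), Lig1, the DNA ligase, 0.581-fold (0.356 to 0.937), and Orc6, of the origin complex, 0.959-fold (0.596 to 1.55). In a mitosis list 7 of 25 lay below 1 and 0 above, with Cks2 at 0.752-fold (0.577 to 0.981), Cks1b at 0.657-fold (0.471 to 0.913) and Spc24, a kinetochore protein, at 0.367-fold (0.238 to 0.554). Of 10 tested genes of a list of CDK inhibitors and quiescence genes, all 10 stood above 0, against 3850 of 8186 genes. Among the 10, 4 had an interval above 1, against 4.7% of genes. These were Btg1, an antiproliferative gene, at 1.39-fold (1.32 to 1.46), Btg2 at 1.16-fold (1.03 to 1.30), Cdkn1a, which encodes p21, at 1.18-fold (1.02 to 1.36) and Tob1 at 1.99-fold (1.49 to 2.68). In a G1 list 1 of 12 lay above (Cdk6, 1.55-fold) and 1 below (Rb1, 0.340-fold), and its most abundant genes Ccnd2 (1.01-fold), Ccnd3 (0.909-fold) and Cdk4 (0.806-fold) had intervals that hold 1.

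Within T cell-like cells, the 189 with 3 or more narrow members were set beside the 1246 with fewer, as a description, since the groups were made from these libraries and differ in depth (medians of 2399 and 1227 UMIs). Of 8972 genes with 10 or more UMIs over both groups, the interval of the ratio lay above 1 for 12.1% and below 1 for 7.8%. Among genes so tested it lay above 1 for 22 of 24 of the replication list and 27 of 27 of the mitosis list. In the G1 list it lay above 1 for 5 of 12, among them E2f1 (6.29-fold, 3.94 to 10.2), and below 1 for Ccnd2, cyclin D2 (0.488-fold, 0.417 to 0.569). Among inhibitors Cdkn2c, which encodes p18, was 3.20-fold (2.27 to 4.50), while Btg1 (0.684-fold, 0.645 to 0.725) and Btg2 (0.759-fold, 0.662 to 0.867) were lower. In the inhibitor list as a whole 4 of 11 lay above 1 and 2 below. Outside all lists 68 of 5978 genes with 30 or more UMIs had a ratio over 2 in each of 4 libraries. The 10 with the highest pooled ratio were Fam64a, Mxd3, 2810417H13Rik, Cenpm, Tacc3, Hist1h2ap, Ube2t, Cenpw, Cdc25b and Zfp367. Among these, 2810417H13Rik had 313 UMIs in the first group and 18 in the second, and Fam64a 54 and 0.

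The rule's measure, 3 or more of all 40 members, was met by 36.8% of T cell-like, 56.2% of phagocyte-like and 61.0% of keratinocyte-like cells, and also by 65.0% of 40 cells gated as mature dendritic cells, a type taken as non-dividing (median 2699 UMIs). T cell-like over phagocyte-like was 0.655-fold, and 1.24-fold (1.09 to 1.42) after each cell was thinned to 1000 UMIs. The order of the classes turned after thinning, which also left out 261 T cell-like and 167 phagocyte-like cells under 1000 UMIs. The phagocyte-like ratio of P80 over P45 went from 0.731-fold to 1.08-fold. With 3 or more narrow members the mature dendritic cell gate held 3 of 40 cells (7.50%, 1.57 to 20.4), all 3 at P45, and 1 of 40 after thinning (2.50%, 0.0633 to 13.2). Genes of lymphatic vessels, Ccl21a and Mmrn1, were among the leading genes of that gate.

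Measured by 3 or more narrow members, and taken as whole classes, the T cell-like share was above the phagocyte-like one in each library after thinning when all cells were used. The intervals of the ratio left out 1 at P50 and in the depilated library. Unthinned, the shares in P45, P50, P63, P80 and the depilated library were 11.4%, 14.7%, 10.8%, 11.1% and 12.7% in T cell-like cells, and 9.90%, 12%, 9.64%, 4.43% and 5.89% in phagocyte-like cells. Thinned to 1000 UMIs, they were 6.06%, 14.9%, 6.19%, 14.3% and 10.2% in the first class and 3.32%, 6.13%, 4.88%, 2.11% and 2.62% in the second. The T cell-like value at P80 is 2 of 14 cells. Without shared barcodes it was 0 of 11 thinned and 0 of 32 unthinned, which allows up to 28.5% and 10.9% (exact binomial), and P63 was at 4.30% thinned. Phagocyte-like cells without shared barcodes stood at 3.34%, 5.98%, 3.12%, 0% (0 of 60 cells, up to 5.96%) and 2.07% thinned. Thinning left out 261 T cell-like cells, 141 of them from P50 and 93 from the depilated library, and 167 phagocyte-like cells. Over all libraries T cell-like over phagocyte-like was 1.42-fold (1.17 to 1.72) and 2.96-fold thinned (2.26 to 3.89), but the libraries take unequal parts in the classes: P45 gave 132 of 1435 T cell-like and 1475 of 2816 phagocyte-like cells. Within libraries the thinned ratio was 2.43 at P50 (1.53 to 3.96) and 3.88 in the depilated library (2.04 to 7.97). P45 gave 1.82 (0.746 to 3.88), P63 1.27 (0.363 to 4.17) and P80 6.79 (0.492 to 93.6), with intervals that hold 1. P50 over P45 in T cell-like cells was 1.30-fold (0.741 to 2.42), not distinguishable at this depth, and 2.46-fold thinned (1.17 to 5.96). The depilated library over P50 was 0.861-fold (0.623 to 1.19) and 0.681-fold thinned (0.462 to 1.0). The 2.50% of the mature dendritic cell gate after thinning is 1 of 40 cells. Unthinned, 1 cell of that gate, at P45, had 8 or more narrow members. The gate therefore gives no background rate for non-dividing cells. The interval of that gate holds every thinned phagocyte-like share and also the thinned T cell-like shares at P45, P63 and after depilation, but not those at P50 and P80. Other phagocyte-like gates varied. Unthinned over all libraries, 21 of 125 Langerhans cell-like cells (16.8%, 10.7 to 24.5) had 3 or more narrow members. Dendritic cell-like cells held 99 of 997 (9.93%), macrophage-like 45 of 644 (6.99%) and the T cell-like class 189 of 1435 (13.2%). The Langerhans cell-like cells had a median of 2678 UMIs, against 1290 in the T cell-like class.

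**Figure D5:**
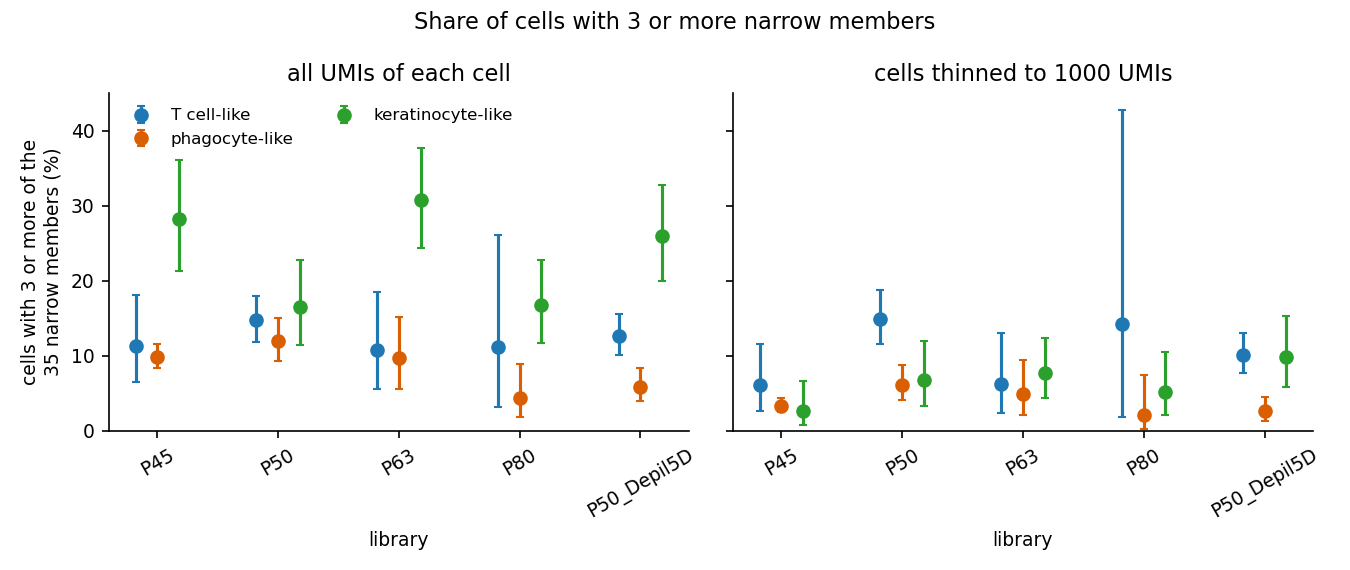
Percent of cells with 3 or more of the 35 narrow members (y axis) in each library (x axis) for 3 classes, from all UMIs (left) and after thinning each cell to 1000 UMIs (right). Points are single libraries and bars exact 95% binomial intervals, and that of T cell-like cells at P80 in the right panel rises to 42.8%. Keratinocyte-like cells are the highest class on the left in each library, with 30.8% at P63 and 28.3% at P45, and P45 stands at 2.63% after thinning.

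Dendritic epidermal T cell-like cells made up 1100 of the 1435 T cell-like cells. They were gated on genes of the gamma-delta T cells of mouse epidermis, Xcl1, Fcer1g and Gzmc among others. The sort was from dermis, and Trdv4, the T cell receptor gene of that list, was not in the gene table. Gamma-delta or epidermal identity was therefore not shown. Thinned, 6 of 86 (6.98%), 53 of 326 (16.3%) and 39 of 417 (9.35%) had 3 or more narrow members at P45, P50 and after depilation. P50 over P45 was 2.33-fold (1.0 to 6.63), and 2.31-fold (0.995 to 6.60) without shared barcodes. The depilated library over P50 was 0.575-fold (0.370 to 0.886), and 0.568-fold (0.364 to 0.880) without them. Thinning kept 326 of 443 of these cells at P50 and 417 of 498 after depilation. Unthinned, 68 of 443 and 59 of 498 had 3 or more. Without shared barcodes the unthinned ratios were 1.30-fold for P50 over P45 (0.664 to 2.83) and 0.762-fold after depilation (0.525 to 1.10). With 8 or more narrow members the ratio after depilation was 0.712-fold (0.433 to 1.16). These 3 intervals hold 1. Regulatory T cell-like cells, gated on Foxp3 and Ctla4 among others, held 15 of 93 thinned (16.1%, 9.32 to 25.2). At P50 and after depilation they stood at 6 of 37 (16.2%) and 6 of 35 (17.1%). The gamma-delta T17-like cells held 1 of 45 (2.22%, 0.0562 to 11.8). The intervals of the 3 T cell types overlap.

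In phagocyte-like cells the narrow members were lower in the depilated library. Their level was 546 CPM at P45, 764 at P50 and 453 after depilation, with 681 and 492 at P63 and P80, which became 378 and 390 without shared barcodes. P50 and the depilated library were then at 769 and 444 CPM, 0.578-fold (0.518 to 0.644). With all cells the depilated library over P50 was 0.592-fold (0.532 to 0.659) in level and 0.491-fold (0.305 to 0.774) in the share of cells with 3 or more narrow members. The interval lay below 1 for 17 of 39 tested members, against 14.2% of 8153 genes, and above 1 for H2afz alone, against 3.84%. The median was -0.44 for members and -0.16 for all genes, so genes of this class leaned lower as a whole. TMM scaling shifts every log2 ratio of this comparison by 0.24 and gives 0.701-fold for the summed level. Mki67 was at 25.6 CPM at P50 and 6.85 after depilation (34 and 8 UMIs), Tyms at 22.6 and 5.13 (30 and 6 UMIs) and Top2a at 51.2 and 25.7 (68 and 30 UMIs). The broad members together were 1.03-fold (0.984 to 1.07), with H2afz at 1.29-fold (1.22 to 1.36) and Stmn1 at 0.614-fold (0.467 to 0.803).

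A few deep cells held many of these UMIs. At P50 the 8 phagocyte-like cells with 12 or more narrow members had a median of 7061 UMIs, and 1 cell gave 85 of 1014 narrow UMIs. Without the 5% of cells with the most UMIs in each library the level was 548 CPM at P50 and 426 after depilation, 0.779-fold (0.688 to 0.880). Whether such cells are doublets was not tested. Cells with 8 or more narrow members were 19 of 525 at P50 (3.62%) and 15 of 492 after depilation (3.05%), 0.842-fold (0.398 to 1.75). Thinned to 1000 UMIs the ratio was 0.200-fold, with an interval that also holds 1. Few cells remain after thinning: with 5 or more narrow members they were 9 of 457 and 6 of 458, 0.665-fold (0.195 to 2.09). Between P45 and P50 the interval lay above 1 for 14 of 40, against 7.96% of 10936 genes, and below 1 for 0, against 14.3%. Birc5 (2.49-fold, 1.71 to 3.61) and Ube2c (2.14-fold, 1.61 to 2.83) were among the 14, and the narrow members in sum were 1.40-fold (1.30 to 1.51). Without the 5% of cells with the most UMIs their level was 532 CPM at P45 (510 to 554) and 548 at P50 (505 to 592), intervals that overlap. The share of cells with 8 or more narrow members was 1.03-fold at P50 over P45 (0.573 to 1.77).

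Keratinocyte-like cells went the other way after depilation. Narrow members were at 725 CPM at P50 and 1128 in the depilated library, 1.56-fold (1.38 to 1.76), and mitosis members at 510 and 879 CPM, 1.72-fold (1.5 to 1.99). Replication members did not differ beyond counting error, at 1.15-fold (0.912 to 1.47). The interval lay above 1 for 9 of 35 tested members, against 4.39% of 7646 genes, and below 1 for 0, against 3.71%. Mki67 went from 16.0 to 44.0 CPM (9 and 32 UMIs), Cenpf, a kinetochore protein, from 16.0 to 48.2 (9 and 35 UMIs) and Cdca3, a mitotic entry factor, from 8.91 to 34.4 (5 and 25 UMIs). All 19 tested mitosis members stood above 0, with a median of 0.59, against 3638 of 7646 genes above 0 and a median of -0.02.

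The size of the keratinocyte-like difference depended on which cells were used. Without shared barcodes, 42 cells at P50 and 58 in the depilated library remained, with narrow members at 351 and 1150 CPM, 3.28-fold (2.60 to 4.18), and mitosis members at 6.56-fold (4.59 to 9.67). Without shared barcodes the share of cells with 3 or more narrow members was 7 of 42 (16.7%, 6.97 to 31.4) and 27 of 58 (46.6%, 33.3 to 60.1). Without low-share cells the narrow members were 2.75-fold. A single cell with 24521 UMIs in the depilated library held 136 of 820 narrow UMIs, which is 16.6%. Without the 5% of cells with the most UMIs in each library, over all classes, the level was 793 CPM at P50 and 702 after depilation. The ratio was then 0.884-fold (0.740 to 1.06), so the direction turned. The mitosis members turned with it, to 0.828-fold (0.668 to 1.03). This cut fell unequally on the class. It kept 163 of 181 cells at P50 and 158 of 192 after depilation, and 5 of 9 and 5 of 17 of those with 8 or more narrow members. Thinned to 1000 UMIs, the shares were 10 of 149 (6.71%) and 17 of 172 (9.88%), 1.47-fold (0.637 to 3.60). At P80 the level was 902 CPM, and 254 without shared barcodes, and all 9 keratinocyte-like cells with 8 or more narrow members had one.

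The 769 mixed cells held 135 with 3 or more narrow members (17.6%) and 43 of 700 (6.14%) after thinning. Of 42 fibroblast-like cells 1 had 3 or more, and thinned 0 of 41, which allows a share of up to 8.60% (exact binomial).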

How the data were processed

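The deposited matrices hold whole-number UMI counts per gene and cell barcode. Per the submitters' processing notes, build mm10 and Seurat were used; for the aligner, counting tool, annotation, cell calling and the role and version of Seurat, the status is: not given in the sources used here. Barcodes needed 200 genes or more, with 10% or less of UMIs from mitochondrial genes. No doublet caller was run. A class needed UMIs of at least 2 of its 8 markers and a lead of 2 over the other classes, and T cell-like cells also a Cd3d, Cd3e or Cd3g UMI. This lead was settled after seeing marker counts. The gate on monocyte markers led with neutrophil genes (Ngp, S100a9) and is not named. Levels are class sums per 1000000 UMIs; log2 ratios add 10 CPM. Intervals are exact 95% (Clopper-Pearson for shares, Poisson for levels, conditional for ratios). Members and lists were chosen with earlier results of these data known. Values in every library are given for the 3 members of each role with the highest pooled T cell-like level, and lists by counts with up to 3 genes of most UMIs. Genes beyond this rule were named after their values were seen. No test between libraries was possible. The bound of 8 members, the ratios of keratinocyte-like cells and the low-share and shared-barcode accounts by class were added after seeing the data. Alternatives changed cell filters, gates, thinning, scaling (TMM, edgeR 4.0.16) and thresholds. Python 3.11.15, scipy 1.17.1 and pandas 2.3.3 were used, and the ratio, gate and thinning code was tested on simulated data.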

Additional observations from a re-analysis of the deposited data

Results flagged for a closer look

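After depilation the summed level of narrow members moved in opposite directions between classes, which was not tested beyond counting error since each condition is 1 library. The depilated library over P50 was 0.813-fold in T cell-like cells, 0.592-fold in phagocyte-like cells and 1.56-fold in keratinocyte-like cells, and the intervals for counting error left out 1 in each. Of the cells behind these values 1.27%, 7.24% and 76.8% had a shared barcode at P50. Without those cells the keratinocyte-like value was 3.28-fold, and without the 5% of cells with the most UMIs in each library it was 0.884-fold. The latter cut kept 163 of 181 keratinocyte-like cells at P50 and 158 of 192 after depilation.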

How the results depend on the processing

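Of 248 alternatives over 23 results, 210 left the value on its side and within the spread used here, 31 moved it and 7 reversed it; the cause was not tested. Where 3 or more of all 40 members were counted, thinning to 1000 UMIs gave 0.846 for the depilated library over P50 and 1.59 for P50 over P45 in T cell-like cells, 1.08 for P80 over P45 in phagocyte-like cells and 1.24 for T cell-like over phagocyte-like. Thinning to 500 gave 1.62, 1.87 and 1.39 for the last 3. A bound of 5 members gave 0.722, 1.13 and 0.910 for the T cell-like ratios (to P50, to P45 and over phagocyte-like) and 0.642 for phagocyte-like cells after depilation. A bound of 2 gave 0.748 over phagocyte-like, and a minimum of 500 genes 0.948 for P80 over P45. With 3 or more narrow members, thinning to 1000 gave 2.46 for P50 over P45 in T cell-like cells, T cell-like over phagocyte-like was 2.96, 3.20 and 1.84 (thinned to 1000, to 500, and 5 members), and keratinocyte-like cells without shared barcodes gave 2.79. With 8 or more, thinning to 500 gave 0.720 for P50 over P45 in T cell-like cells, phagocyte-like cells after depilation gave 0.200 and 0 (1000 and 500), and keratinocyte-like cells 0 (1000) and no value (500). The intervals of these phagocyte-like values hold 1. Summed levels with a marker lead of 3 were 0.748 and 3.02 in T cell-like cells (after depilation, P50 over P45), 0.663 in phagocyte-like, and 1.36 (narrow) and 1.49 (mitosis) in keratinocyte-like cells; a lead of 1 gave 2.16 for P50 over P45. Phagocyte-like levels were 0.50 without low-share cells, 0.779 without the 5% of cells with the most UMIs and 0.701 with TMM. Keratinocyte-like narrow and mitosis levels were 2.75 and 4.41 without low-share cells, 3.28 and 6.56 without shared barcodes, and 0.884 and 0.828 without the deepest 5%. With 1 CPM added, 5 members were 2-fold lower. No paired analysis was possible because each condition is 1 library, and none could be left out.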
